A study of Zea mays with 6 samples.

Results

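The NRAMP (natural resistance-associated macrophage protein) family was followed in the filling endosperm of maize, the tissue of the kernel that stores starch and protein. Its members were taken as the 5 maize genes that the study used for its NRAMP protein tree, by gene ID and at any level, out of 44303 genes with a value. They are *ZmNRAMP5* (Zm00001eb304610), Zm00001eb224770, Zm00001eb231210, Zm00001eb097120 and Zm00001eb113380. Endosperm of *zmnac128 zmnac130*, a double knockout of the NAC transcription factor genes *ZmNAC128* and *ZmNAC130*, was set against endosperm of wild-type siblings, both collected at 16 days after pollination (DAP). The knockout was made in the inbred KN5585 and crossed with the inbred B73. The endosperms of both genotypes were offspring of the self-pollinated cross, so KN5585 and B73 alleles segregate in both, except around the genotyped NAC genes. No label names this background, which is inferred from the study's methods and from its name NT for siblings from the cross. RNA came from more than 3 genotyped endosperms per genotype. Expression was given as FPKM, a fragment count divided by the length of the gene model and by the size of the library.

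There were 3 samples labelled per genotype, but the sample labelled replicate 3 was a copy of replicate 1 across all 44303 genes in both genotypes. Those samples were counted as 1, which left 2 distinct libraries per genotype, and SDs below are those of 2 libraries. The study calls its replicates independent samples, but no label says whether the libraries came from separate plants. The p-values therefore speak for these libraries only, and those of limma rest in part on variance shared across genes. The library sizes behind the FPKM values were 26317317 to 30696032 reads, as read from the steps of the values, and 25859554 to 30015648 reads were recovered in the genes given. The zeins, storage proteins that define starchy endosperm, were abundant in both genotypes. The 7 zeins with a known ID summed to 20579 and 15173 FPKM in the *zmnac128 zmnac130* libraries, against 57564 and 56629 FPKM in the wild-type libraries. *ZmNAC128* and *ZmNAC130* themselves, and markers of aleurone, embryo and pericarp, were not used here, since their IDs were not paired with names.

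NRAMP proteins carry divalent metal ions across membranes together with protons. In plants they are known for the uptake and distribution of manganese and iron, and some of them also carry cadmium, a toxic heavy metal. In rice, *OsNRAMP5* is the main route of manganese and cadmium into the root, and *OsNRAMP1* also contributes to cadmium uptake. *OsNRAMP3* of rice distributes manganese at the nodes of the stem, and *OsNRAT1* takes up aluminium. In a protein tree of maize, rice and Arabidopsis, *ZmNRAMP5* stands beside *OsNRAMP5*, Zm00001eb097120 beside *OsNRAMP1*, Zm00001eb224770 beside *OsNRAMP3*, Zm00001eb231210 beside *OsNRAT1* and Zm00001eb113380 beside *OsNRAMP6*. The roles given are those of the rice proteins. Of the 5 genes, 1 could be matched to RefSeq, *ZmNRAMP5*, whose gene spans 27796372 to 27800908 on chromosome 7 (assembly Zm-B73-REFERENCE-NAM-5.0). That entry carries *Nramp1* as a synonym for the same gene.

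In *zmnac128 zmnac130*, *ZmNRAMP5* rose and became the most abundant NRAMP transcript, whereas in the wild type Zm00001eb224770 was the most abundant by a wide margin. Zm00001eb224770 was lower in both mutant libraries than in both wild-type libraries. Zm00001eb097120 and Zm00001eb113380 were weakly expressed and had their lower values in the mutant as well, and Zm00001eb231210 showed no separation of the genotypes. *ZmNRAMP5* thus went the opposite way to the 3 other members whose libraries did not overlap between genotypes. Over all 33589 genes above 0, the libraries of the genotypes did not overlap in 62.7%, so a lack of overlap is common in these data and is no result on its own. In bulk endosperm, fewer cells of a type and less RNA per cell cannot be told apart.

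**Figure D1:**
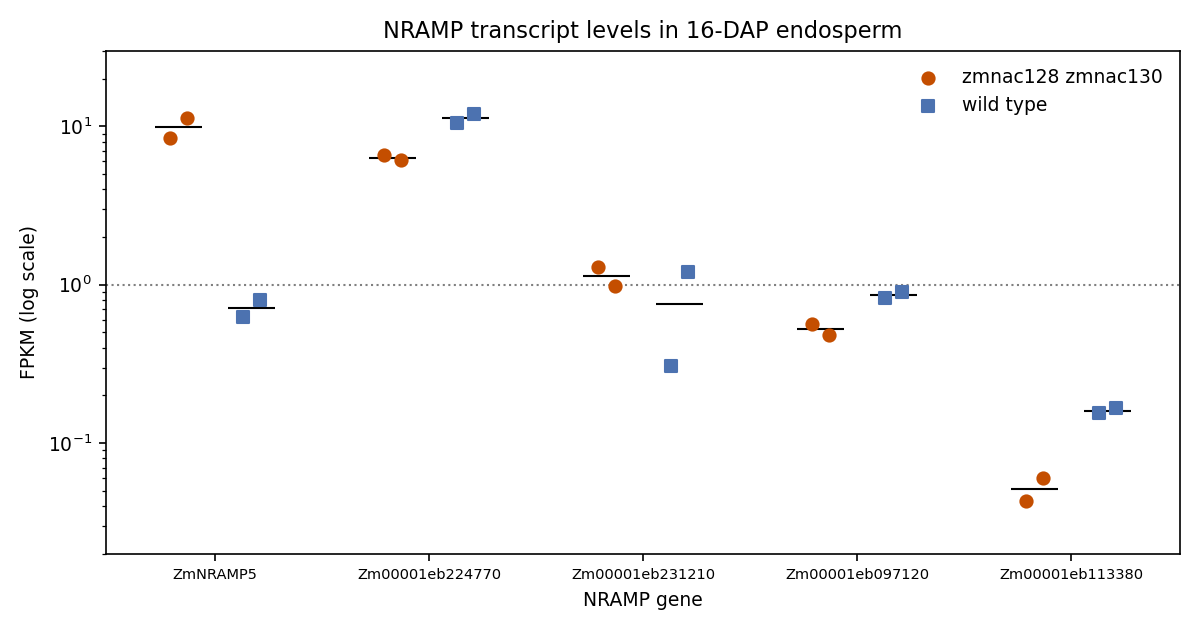
FPKM on a log axis for each NRAMP gene in the 2 *zmnac128 zmnac130* libraries (circles) and the 2 wild-type libraries (squares), with the mean as a line and 1 FPKM dotted. *ZmNRAMP5* sits at 8.39 and 11.3 FPKM in the mutant and at 0.624 and 0.797 FPKM in the wild type, and Zm00001eb231210 is the gene in which the genotypes overlap.

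*ZmNRAMP5* had 8.39 and 11.3 FPKM in the *zmnac128 zmnac130* libraries, against 0.624 and 0.797 FPKM in the wild-type libraries. Both mutant libraries lay far above both wild-type libraries, and the spread within each genotype was smaller than the gap between the genotypes. The values rest on 565 and 726 reads in the mutant, against 39 and 46 reads in the wild type, so the wild-type level is low but not at the limit of detection. The mean was 9.84 ± 2.05 FPKM in the mutant and 0.710 ± 0.122 FPKM in the wild type (SD, n = 2 each), a ratio of 13.8 between the genotypes.

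The difference was tested with limma (linear models that share variance across genes) on the log2(FPKM + 1) scale. Calls required a log2 fold change beyond 1 in either direction together with an adjusted p (Benjamini-Hochberg) below 0.05. The fit held the 19082 genes whose mean over the 4 libraries reached 1 FPKM. The log2 fold change of *ZmNRAMP5* was 2.65 (standard error 0.18, 95% interval 2.22 to 3.08, adjusted p = 2.13e-04 from limma). *ZmNRAMP5* is on the study's list of changed genes, which was picked using these same libraries among others. Its call and direction are therefore no independent evidence. The pseudocount of 1 pulls down the fold change of a gene near 0, and the plain log2 ratio of the means was 3.79. In the same fit 2598 genes were called, 13.6% of those tested, with 6.43% called higher and 7.18% called lower. *ZmNRAMP5* had the log2 fold change ranked 141 from the highest of 19082. A gene with a wild-type mean below 1 FPKM passes the filter only through its mutant level, and of the 745 such genes tested 394 were called higher. Of the same 745 genes, called or not, 91 had a log2 fold change at least as large as that of *ZmNRAMP5*, which is counted among them.

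The rise moved *ZmNRAMP5* through the ranks of the transcriptome. In the mutant libraries, 68.2% and 73.2% of the genes above 0 had a lower FPKM than *ZmNRAMP5*, against 30.2% and 32.0% in the wild-type libraries. Zm00001eb224770 moved the other way, with 63.6% and 61.8% of genes below it in the mutant libraries, against 73.4% and 74.7% in the wild-type libraries. The place that *ZmNRAMP5* took in the mutant is close to the one that Zm00001eb224770 held in the wild type.

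Zm00001eb224770, the relative of rice *OsNRAMP3*, had 6.56 and 6.10 FPKM in the *zmnac128 zmnac130* libraries, against 10.6 and 11.9 FPKM in the wild-type libraries. The genotypes did not overlap, and the gap between them was several times the spread within either. The counts behind these values were 652 and 579 reads in the mutant and 975 and 1013 reads in the wild type. The log2 fold change was -0.74 (standard error 0.12, 95% interval -1.03 to -0.45, adjusted p = 0.00444 from limma), a mean in the mutant that was 0.564 of the wild-type mean. The gene was not called, because the fold change stayed under the threshold. An adjusted p below 0.05 with any fold change was found in 43.9% of the genes tested, so the small p is not unusual here. Without wild-type replicate 1 the adjusted p of limma was 0.0508, and without wild-type replicate 2 it was 0.0705, and the log2 fold changes were -0.81 and -0.66. In those fits the wild type had 1 library, which is assumed to vary like the mutant libraries.

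The other 3 members had a mean below 1 FPKM and were not tested in that fit, so 2 of 5 members were tested and 1 was called. They are given by their levels, and for these genes the fits without a filter are quoted beside them. Without a filter 33589 genes entered, of which 8.15% were called on the log2(FPKM + 1) scale and 16.0% with limma voom run on the recovered reads. With a pseudocount of 0.1 it was 14.9%. *ZmNRAMP5* was called in all 3 of these fits. The log2 fold changes were 2.65 (pseudocount 1), 3.61 (pseudocount 0.1) and 3.77 (voom), with limma adjusted p of 0.00274, 0.00172 and 8.23e-04 in the same order.

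Zm00001eb097120, the relative of the rice iron and cadmium transporter *OsNRAMP1*, had 0.567 and 0.478 FPKM in the *zmnac128 zmnac130* libraries, against 0.820 and 0.904 FPKM in the wild-type libraries. Both mutant libraries were lower than both wild-type libraries, on 41 and 33 reads against 55 and 56 reads. The mean in the mutant was 0.606 of that in the wild type, close to the ratio of Zm00001eb224770. The gene was not called (log2 fold change -0.71, 95% interval -1.44 to 0.01, adjusted p = 0.129 from limma voom without a filter). In the other fits without a filter it was not called either, with log2 fold changes of -0.29 (pseudocount 1) and -0.63 (pseudocount 0.1).

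Zm00001eb113380, the relative of *OsNRAMP6*, was barely present. It had 0.0429 and 0.0599 FPKM in the *zmnac128 zmnac130* libraries, against 0.154 and 0.167 FPKM in the wild-type libraries. These levels stand on 3 and 4 reads in the mutant, against 10 and 10 reads in the wild type. At the summed 7 and 20 reads the ratio of the genotypes was 0.320, with an exact 95% interval from 0.114 to 0.787 that covers counting error only. Mates of 1 fragment can be counted as separate reads, which makes such intervals too narrow. The gene was not called (log2 fold change -1.54, 95% interval -2.89 to -0.18, adjusted p = 0.0899 from limma voom without a filter). In the other fits without a filter it was not called either, with log2 fold changes of -0.14 (pseudocount 1) and -0.78 (pseudocount 0.1).

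Zm00001eb231210, the relative of the rice aluminium transporter *OsNRAT1*, had 1.30 and 0.986 FPKM in the *zmnac128 zmnac130* libraries, against 0.309 and 1.21 FPKM in the wild-type libraries. The second wild-type library lay between the mutant libraries, and the first lay below all others. The wild-type libraries differed from each other by a ratio of 3.92 (21 and 76 reads, exact 95% interval 2.39 to 6.69 for counting error), which is the widest spread within a genotype among the 5 genes. The gene was not called (log2 fold change 0.91, 95% interval -0.45 to 2.26, adjusted p = 0.285 from limma voom without a filter). In the other fits without a filter it was not called either, with log2 fold changes of 0.33 (pseudocount 1) and 0.75 (pseudocount 0.1). Without wild-type replicate 1 its log2 fold change on the log2(FPKM + 1) scale was -0.0492, so the direction of this gene rests on that library.

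**Figure D2:**
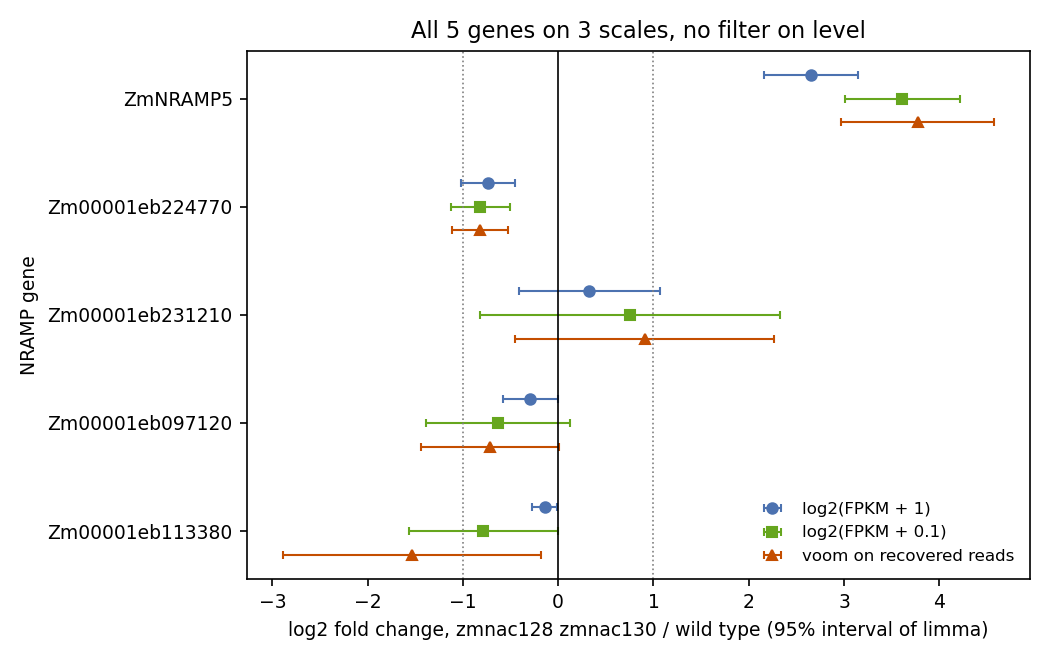
Log2 fold change of the 5 NRAMP genes with the 95% interval of limma, in fits of all 33589 genes above 0 on the log2(FPKM + 1) scale (circles), the log2(FPKM + 0.1) scale (squares) and with voom on recovered reads (triangles). *ZmNRAMP5* lies right of the dotted threshold of 1 on all 3 scales, and the interval of Zm00001eb231210 spans 0 on each.

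The order of the members by FPKM differed between the genotypes. In *zmnac128 zmnac130* the order of the means was *ZmNRAMP5* (9.84 FPKM), Zm00001eb224770 (6.33), Zm00001eb231210 (1.14), Zm00001eb097120 (0.523) and Zm00001eb113380 (0.0514), and no neighbours in that order overlapped between libraries. In the wild type Zm00001eb224770 came first with 11.2 FPKM. It was followed by Zm00001eb097120 (0.862 FPKM), Zm00001eb231210 (0.759 FPKM) and *ZmNRAMP5* (0.710 FPKM). Zm00001eb231210 overlapped with both of its neighbours in that order, and Zm00001eb113380 came last with 0.160 FPKM, apart from the others. *ZmNRAMP5* stood at 1.28 and 1.85 times the FPKM of Zm00001eb224770 in the mutant libraries, and at 0.0591 and 0.0670 times in the wild-type libraries. In the wild type this is an excess of Zm00001eb224770 of 16.9 and 14.9 times.

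The lead of *ZmNRAMP5* in the mutant was narrower in reads, which are not divided by length, than in FPKM. The gene model of *ZmNRAMP5* is the shorter one, with 2194 bases against 3239 bases (the smallest lengths that give whole reads). In reads, *ZmNRAMP5* had 565 against 652 of Zm00001eb224770 in the first mutant library and 726 against 579 in the second. Its lead in reads was therefore present in 1 of the 2 mutant libraries, and the summed reads were 1291 against 1231. The dominance of Zm00001eb224770 in the wild type was present in reads as well, with 975 against 39 and 1013 against 46.

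The family sum was moderately higher in *zmnac128 zmnac130*. It came to 16.9 and 18.9 FPKM in the mutant libraries, against 12.5 and 15.0 FPKM in the wild-type libraries. The mean was 17.9 ± 1.46 FPKM in the mutant and 13.7 ± 1.76 FPKM in the wild type (SD, n = 2 each), a ratio of 1.30. The libraries did not overlap in FPKM, but in reads scaled to library size the second wild-type library lay between the mutant libraries. The exact two-sided permutation test on FPKM gave p = 0.333, the smallest that 2 libraries against 2 allow over 6 arrangements. Without *ZmNRAMP5* the sum of the other 4 members went the other way, with 8.46 and 7.62 FPKM in the mutant libraries against 11.9 and 14.2 FPKM in the wild-type libraries (exact permutation p = 0.333).

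The share of *ZmNRAMP5* in the family sum was 49.8% and 59.7% in the *zmnac128 zmnac130* libraries, against 5.003% and 5.33% in the wild-type libraries. The share of Zm00001eb224770 was 38.9% and 32.2% in the mutant, against 84.7% and 79.4% in the wild type. In each genotype these genes together made up most of the family, while the other 3 stayed minor. Zm00001eb231210 held 7.69% and 5.21% in the mutant and 2.47% and 8.08% in the wild type. Zm00001eb097120 held 3.37% and 2.53% in the mutant and 6.57% and 6.04% in the wild type. The exact permutation p for the share of *ZmNRAMP5* was 0.333, again the smallest possible.

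**Figure D3:**
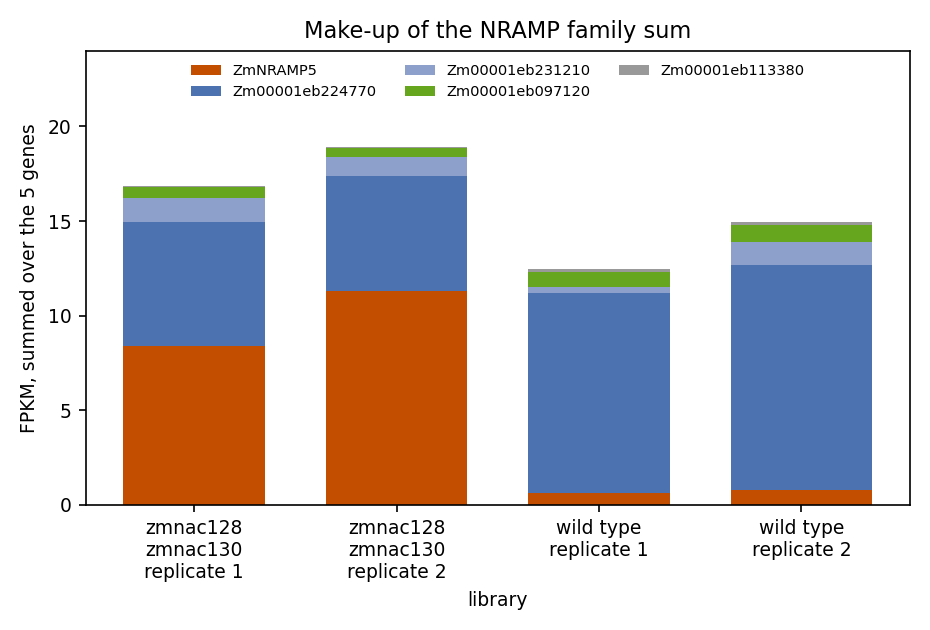
Stacked FPKM of the 5 NRAMP genes in each library. The bars reach 16.9 and 18.9 FPKM in *zmnac128 zmnac130* and 12.5 and 15.0 FPKM in the wild type, and the *ZmNRAMP5* segment makes up 49.8% and 59.7% of the mutant bars and 5.003% and 5.33% of the wild-type bars.

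Marker genes of another part of the endosperm, the basal transfer layer, also differed between these libraries. *betl3*, a marker gene of the basal transfer layer, where nutrients pass into the endosperm, had 44.4 and 29.5 FPKM in the *zmnac128 zmnac130* libraries, against 135 and 162 FPKM in the wild-type libraries. The sugar transporter gene *ZmSWEET4c*, also of that layer, had 77.6 and 61.1 FPKM in the mutant, against 154 and 180.2 FPKM in the wild type. Both were called lower, and no other marker of this layer was used here. Both, like the zeins, are named here from the study's list of changed genes. All 7 zeins were called lower too. The study picked its list of changed genes using these same libraries among others, so these calls are no independent evidence. The part of these shifts in the NRAMP values was not tested.

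Other genes of metal and metalloid transport were taken from those the study names or describes, which it picked using these same libraries among others. The calls, the direction and the median of this list are therefore no independent evidence. Of these 7 genes, 6 were called higher and 1 lower, while 13.6% of all genes tested were called. The median log2 fold change was 1.44 against 0.0068 over all genes tested. Like *ZmNRAMP5*, *ZmMRPA14* and *ZmMATE11* stayed below 1 FPKM in both wild-type libraries. The ABC-C transporter gene *ZmMRPA14* had 4.17 and 4.74 FPKM in the *zmnac128 zmnac130* libraries against 0.203 and 0.297 FPKM in the wild-type libraries. The MATE transporters, a family that exports organic compounds and ions, had log2 fold changes of 4.99 for *ZmMATE11*, 2.87 for *ZmMATE17*, 1.44 for *ZmMATE30* and 1.22 for *ZmMATE48*.

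A gene described as vacuolar iron transporter 1.2-like (Zm00001eb312010), of a family that moves iron into the vacuole, had 19.5 and 22.6 FPKM in the mutant libraries, against 7.50 and 8.27 FPKM in the wild-type libraries (limma adjusted p = 5.98e-04, log2 fold change 1.31 ± 0.12, standard error). The exception was the copper transporter gene *ZmCOPT2*. It had 4.56 and 3.70 FPKM in the mutant libraries, against 22.7 and 23.3 FPKM in the wild-type libraries (limma adjusted p = 1.15e-04, log2 fold change -2.23 ± 0.12, standard error).

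**Figure D4:**
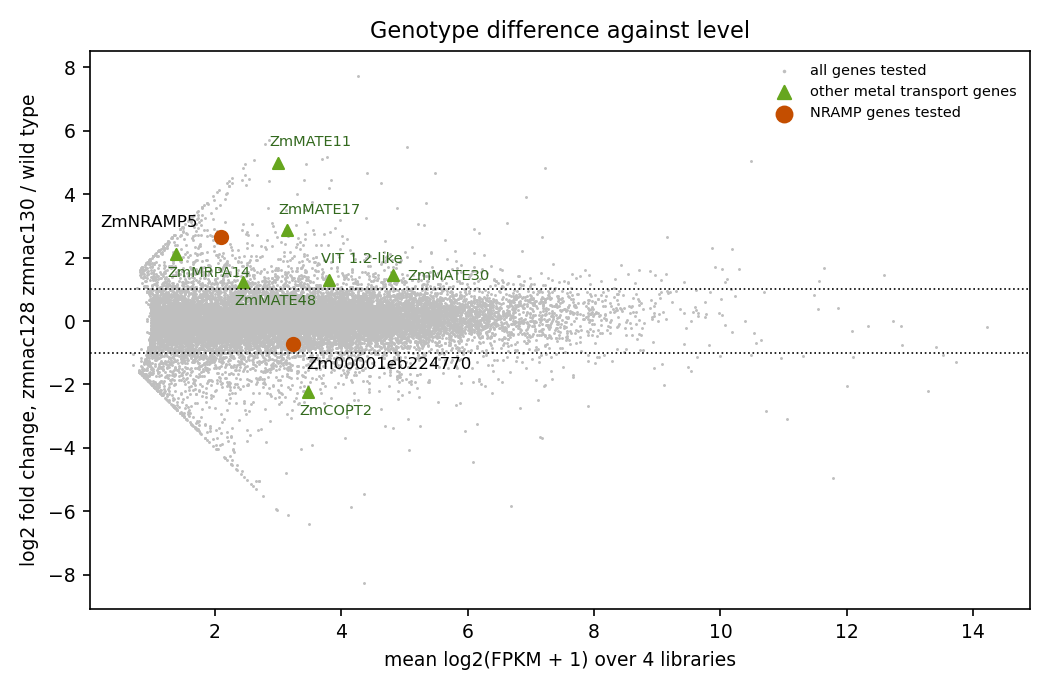
Log2 fold change of *zmnac128 zmnac130* against wild type, plotted over the mean log2(FPKM + 1) of the 4 libraries, for the 19082 genes tested (grey), the 2 NRAMP genes tested (large circles) and 7 other metal transport genes (triangles). VIT 1.2-like is the vacuolar iron transporter gene. *ZmNRAMP5* lies at 2.65, above the dotted line of the fold change threshold, Zm00001eb224770 at -0.74 lies between the lines, and *ZmCOPT2* is the triangle below them.

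The genes with the pattern most like that of *ZmNRAMP5* were sought by the Euclidean distance of log2(FPKM + 1) over the 4 libraries, which is a description and carries no test. The nearest of all was Zm00001eb062500, an uncharacterized protein gene, with 7.39 and 10.7 FPKM in the *zmnac128 zmnac130* libraries against 0.681 and 0.624 FPKM in the wild-type libraries (distance 0.24), followed by Zm00001eb414920 (distance 0.30). Named neighbours were sought only among 143 tested genes that the study's list of changed genes or its transporter table names or describes. Genes named only elsewhere were not considered, and most of this pool had been picked by the study as changed. The nearest in the pool was Zm00001eb093440, described as a sugar porter (distance 0.52). It had 5.99 and 9.42 FPKM in the mutant against 0.812 and 0.878 FPKM in the wild type. The next were the genes of BX6, a dioxygenase of benzoxazinoid defence compounds (Zm00001eb164860, distance 1.02), and of RESPONSE TO LOW SULFUR 3 (Zm00001eb043810, distance 1.29). The genes nearest to Zm00001eb224770 were Zm00001eb023690 (distance 0.0954) and Zm00001eb116430 (distance 0.10). The nearest in the same named pool, *ZmPHO1;2b*, a phosphate transporter gene (Zm00001eb258520), stood at rank 810 of all genes (distance 0.70). It was followed by *cl34132_1a* (distance 0.98) and a probable protein phosphatase 2C 8 gene (distance 1.03).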

How the data were processed

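RNA-seq libraries of 16-DAP endosperm were used, and the authors deposited FPKM values of 44303 genes. Clean paired-end reads had been aligned by the authors to B73 RefGen_v5 with HISAT2. For the counting step, the program is not given in the sources used. Replicate 3 of each genotype repeated replicate 1 and was counted once with it. From the step that 1 read makes in the FPKM of each gene, whole reads were recovered for all 33589 genes above 0 (within 0.002 reads, or within 1e-06 of the count where that is larger, with a largest deviation of 0.0467 reads).

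Log2(FPKM + 1) values were fitted with limma 3.58.1 in R 4.3.3 (eBayes with trend, 2 residual and 4.04 prior degrees of freedom, two-sided) over genes whose mean reached 1 FPKM. Other steps were run in Python 3.11.15. The fit was tested on simulated data. Named genes are the 5 members, 7 metal transport genes, marker genes, and the nearest genes to *ZmNRAMP5* and to the member highest in the wild type. Names came from the study's tables and RefSeq. Members and lists were chosen with earlier results of these data known. Voom without a filter was added after the data had been seen.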

Additional observations from a re-analysis of the deposited data

How the results depend on the processing

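*ZmNRAMP5* was called in 13 of the 14 other fits. In 4 of these 1 library was left out, with log2 fold changes from 2.46 to 2.85, and the lone library of a genotype is assumed to vary like the other genotype's. The exception was a pseudocount of 10, with a log2 fold change of 0.89, where 0 of the 5 members, 4 of the 7 metal transport genes and 612 of all genes were called. A pseudocount of 10 exceeds most NRAMP levels. With a filter at a mean of 10 FPKM, no member was left to test, and 936 genes were called. Without a filter, 5011 genes were called with a pseudocount of 0.1 and 5381 with voom. Without a fold change threshold, 2 members and 8369 genes passed. Zm00001eb224770 was called in 0 of 14 other fits. Without wild-type replicate 1, the log2 fold change of Zm00001eb231210 was -0.0492. In reads scaled to depth in place of FPKM, the log2 difference of the family sum was 0.14 against 0.39, and the log2 ratio of *ZmNRAMP5* to Zm00001eb224770 was 0.0599 against 0.62 in *zmnac128 zmnac130* and -4.55 against -3.99 in the wild type, since the members differ in length. Leaving out 1 library, the family sum difference was 0.26 to 0.52. The replicate numbers pair no samples by label, and with 2 numbers the data cannot show pairing (correlation of deviations over genes -0.0779). With the replicate block, the log2 fold change of *ZmNRAMP5* was 2.65 and 1 member was called. Reads limit Zm00001eb113380 most.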
